A study of Homo sapiens with 30 samples.

Results

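The 10 genes described here, GFPT1, GNPNAT1, PGM3, UAP1, OGT, OGA, GNE, NANS, NANP and CMAS, encode enzymes that make and use the hexosamine UDP-GlcNAc and that turn it into activated sialic acid. They were chosen by name, with earlier results of these data known. They were found among the 37843 genes of a count table by matching Ensembl identifiers, without version, to symbols. All 10 were in the table. They fall into 4 genes of UDP-GlcNAc synthesis, 2 of O-GlcNAc cycling and 4 of sialic acid synthesis. Messenger RNA came from LNCaP cells, an established prostate cancer line, first grown from a metastasis in a lymph node, that responds to androgen. The cells were plated in medium with 8% charcoal-dextran-treated serum, which is poor in steroid hormones, and 48 h later received R1881, a synthetic androgen that is not converted to oestrogen, for 24 h. The 5 groups of 3 libraries each, numbered 2, 3 and 4, were vehicle and R1881 at 0.03, 0.06, 0.1 and 10 nM. All groups shared the depleted serum and the same line, and the labels do not say whether the 3 libraries of a group came from separate cultures, so p-values measure only the spread between these libraries. The study set out to compare the expression programs of low and high androgen doses. Of its 30 samples, 15 VCaP libraries were not analysed here.

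The hexosamine pathway takes fructose-6-phosphate from glycolysis, adds an amino group from glutamine, an acetyl group and finally UDP, and so yields UDP-GlcNAc, the donor for N-glycans, mucin-type O-glycans and the O-GlcNAc mark on nuclear and cytosolic proteins. The sialic acid branch starts from UDP-GlcNAc and ends in CMP-sialic acid, the donor with which sialyltransferases cap the glycans of secreted and surface proteins. The prostate epithelium secretes large amounts of glycoprotein under androgen control.

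Promoter sequences are shown for the genes at both ends of the response to 10 nM R1881, the 2 with the largest and the 2 with the lowest fitted log2 fold change against vehicle. They are RefSeq's on GRCh38.p14 and run from 250 bases before to 50 after the annotated start, 5′ to 3′ on the gene's strand, using the RefSeq start nearest to the gene's start in GENCODE 29. Capitals mark matches to the motifs described after them. The GNE promoter is chr9:36276929-36277228 on the minus strand, the UAP1 promoter chr1:162561281-162561580 on the plus strand, the OGA promoter chr10:101818395-101818694 and the NANP promoter chr20:25623965-25624264, both on the minus strand.
GNE: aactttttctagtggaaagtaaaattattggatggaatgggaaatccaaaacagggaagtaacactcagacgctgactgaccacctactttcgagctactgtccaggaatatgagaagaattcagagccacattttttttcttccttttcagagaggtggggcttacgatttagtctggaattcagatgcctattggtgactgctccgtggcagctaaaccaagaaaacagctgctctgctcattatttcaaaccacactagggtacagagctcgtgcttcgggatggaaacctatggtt
UAP1: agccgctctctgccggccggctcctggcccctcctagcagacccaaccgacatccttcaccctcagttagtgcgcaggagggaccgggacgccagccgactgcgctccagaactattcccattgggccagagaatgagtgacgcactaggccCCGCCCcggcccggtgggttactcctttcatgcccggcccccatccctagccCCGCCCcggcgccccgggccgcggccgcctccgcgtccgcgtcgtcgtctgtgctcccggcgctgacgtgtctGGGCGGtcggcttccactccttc
OGA: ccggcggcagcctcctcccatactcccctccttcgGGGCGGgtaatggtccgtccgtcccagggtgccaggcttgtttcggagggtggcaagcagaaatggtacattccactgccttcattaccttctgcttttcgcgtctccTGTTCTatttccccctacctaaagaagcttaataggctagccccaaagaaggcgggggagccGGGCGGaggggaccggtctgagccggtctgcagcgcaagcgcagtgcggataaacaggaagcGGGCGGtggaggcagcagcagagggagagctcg
NANP: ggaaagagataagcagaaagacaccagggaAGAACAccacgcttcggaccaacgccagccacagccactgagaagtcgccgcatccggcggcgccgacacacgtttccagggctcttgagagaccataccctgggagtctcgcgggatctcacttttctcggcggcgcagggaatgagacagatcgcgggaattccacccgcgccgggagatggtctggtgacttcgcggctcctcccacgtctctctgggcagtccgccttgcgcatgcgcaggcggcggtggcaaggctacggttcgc

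The bases G and C made up 43.3% of the GNE window, 70.7% of the UAP1 window, 61.7% of the OGA window and 63.3% of the NANP window, against a median of 58.7% over 35116 RefSeq promoters. All 10 genes had an entry, 14 in all because UAP1 has 3 starts and PGM3 and GNE have 2 each. The full palindromic androgen response element, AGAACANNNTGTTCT, was in none of the 14 and in 0.00285% of all promoters. A single arm of it, TGTTCT on either strand, was in 14.8% of all promoters and in those of OGA, NANS and NANP, whose matches began 107 bases before, 2 bases after and 220 bases before the start. The GC box GGGCGG was in 45% of all promoters and in 12 of the 14, covering 9 of the 10 genes. NANP lacked it, and GNE had it only at its other start. The element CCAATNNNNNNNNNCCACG, known from endoplasmic reticulum stress genes, was in 0.0769% of promoters and in none of these. The core TGACGTGG, also known from that response, was in 0.729% of promoters and in NANS, 41 bases before the start. Both strands were searched, and the arm is the only motif of the set contained in another. These are matches of letters in short windows and not binding sites.

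Total counts per library ran from 30666460 to 61199483. The androgen-induced genes KLK3, KLK2, FKBP5 and TMPRSS2 were higher than in vehicle at every dose, 4 of 4 each time. Of the prostate luminal markers, KRT8 had 2934 ± 252 CPM (counts scaled to a common library size) at 10 nM and 479 ± 14 CPM in vehicle, and KRT18 had 1780 ± 86 CPM and 367 ± 2.8 CPM. HOXB13 had 433 ± 16 CPM at 10 nM and 573 ± 13 CPM in vehicle (SD, n = 3 each). Basal markers (3 of 4 in the table) summed to under 1 CPM in every group, and KRT5 was not analysed here. Within that bound the sum was between 0.29 and 0.54 CPM at 10 nM against 0.023 and 0.044 CPM in vehicle. Most of the sum at 10 nM was KRT14, with 0.36 ± 0.12 CPM, against 0.023 ± 0.022 CPM in vehicle (SD, n = 3 each). KRT14 had 2 counts or fewer in each vehicle library. Fibroblast markers (5 of 6) summed to between 16.5 and 20.3 CPM at 10 nM against 29.3 and 40.4 CPM in vehicle, and COL1A2 was not analysed here. Most of this sum was COL1A1, with 18.1 ± 1.9 CPM at 10 nM and 32.6 ± 6.0 CPM in vehicle (SD, n = 3 each). Leukocyte and endothelial markers (6 of 6) summed to between 5.24 and 8.04 CPM at 10 nM against 16.7 and 20.2 CPM in vehicle. Nearly all of this sum was VWF, with 6.42 ± 1.3 CPM at 10 nM and 18.7 ± 1.7 CPM in vehicle (SD, n = 3 each). LYZ had 0.14 ± 0.088 and 0.046 ± 0.041 CPM, and PTPRC, CD3E, PECAM1 and CDH5 had no count at 10 nM. The part of these low marker sums in the results was not tested. The 5 libraries numbered 3 were set off from the other 10 by a principal component that held 5.86% of variance. Their share of mitochondrial transcripts was 9.31% to 10.7%, and that of the others 6.14% to 7.69%.

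All 4 enzymes of UDP-GlcNAc synthesis rose at 10 nM, and they did so in different proportions and from different doses. UAP1, which joins UTP to GlcNAc-1-phosphate in the last step, rose most, already at the lowest dose. GFPT1, the first and rate-limiting enzyme, rose least and hardly below 10 nM. GNPNAT1, the acetyltransferase of the second step, and PGM3, the mutase of the third, lay between. Levels below are CPM over TMM-scaled library sizes, and a gene was called higher or lower where edgeR's quasi-likelihood test gave a Benjamini-Hochberg adjusted p under 0.05 over the 18403 genes tested. CPM is a share of the messenger RNA of a culture, so fewer expressing cells and less RNA per cell cannot be told apart.

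**Figure D1:**
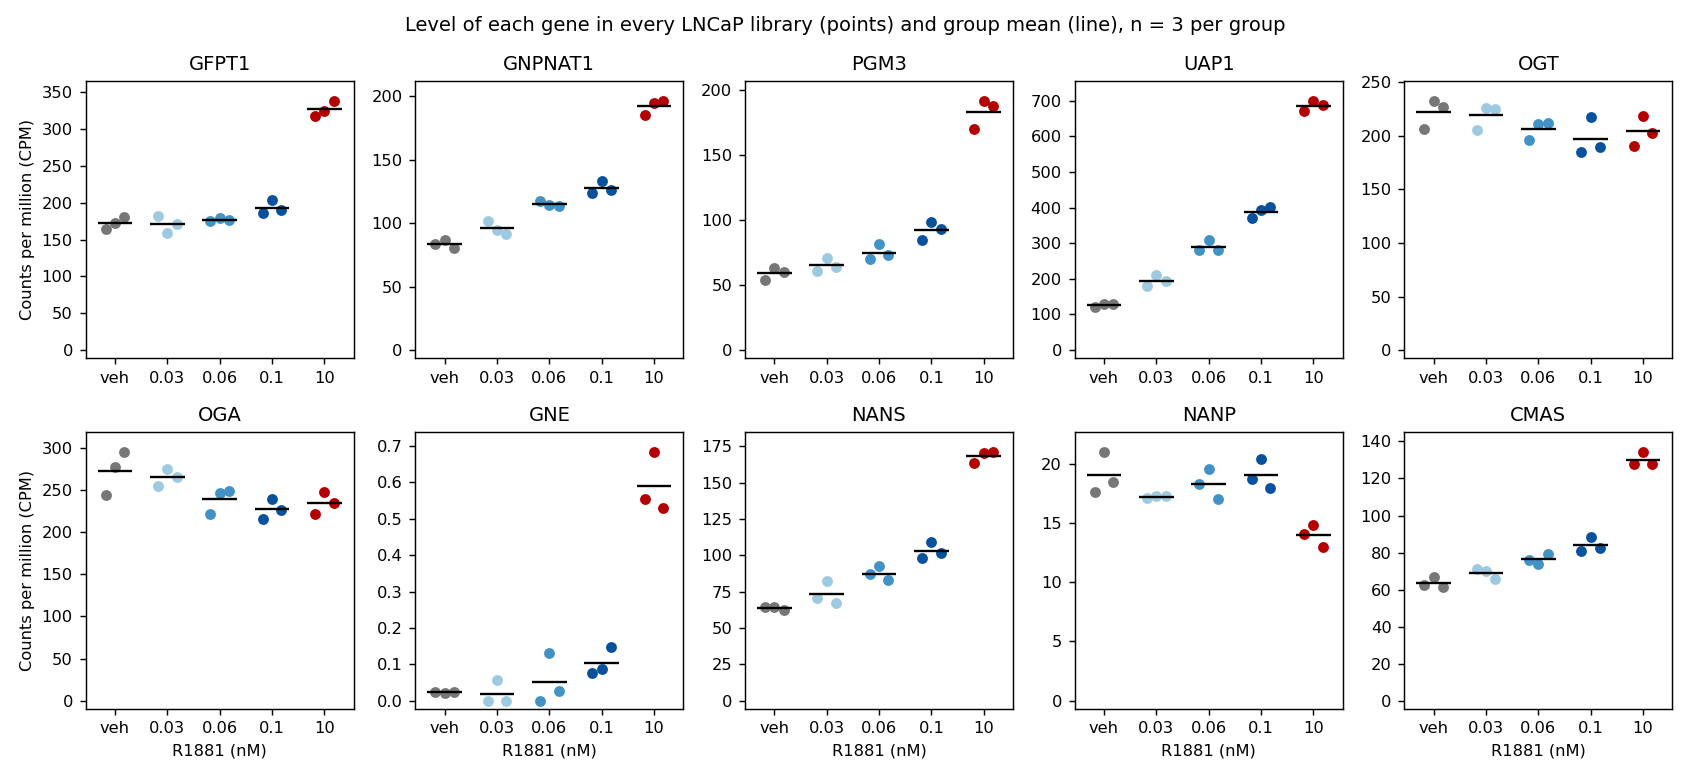
CPM of each gene (vertical axes, linear) in each of the 15 LNCaP libraries by R1881 dose, with points for libraries 2, 3 and 4 from left to right and a line for the group mean. UAP1 is higher at each dose than at the one before, to a mean of 687 CPM, OGT and OGA stay within a narrow band, GNE is highest at 10 nM and NANP is lowest there.

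UAP1 (ENSG00000117143.13, chr1:162561506-162599842, plus strand) had 120.4, 128 and 129.6 CPM in vehicle, 179.8, 212 and 193 CPM at 0.03 nM and 280.4, 309.6 and 282 CPM at 0.06 nM. It had 371, 394 and 400.4 CPM at 0.1 nM and 672, 699.5 and 688 CPM at 10 nM. No library of a dose overlapped those of the dose before it. Its log2 fold change over vehicle was 0.63 ± 0.061 (SE) at 0.03 nM, 1.21 ± 0.062 at 0.06 nM, 1.62 ± 0.062 at 0.1 nM and 2.45 ± 0.064 at 10 nM, the last a 5.44-fold difference with an adjusted p of 1.92e-15. At 10 nM, 1.64% of all tested genes had a log2 fold change at least as high as that of UAP1. The increase was also called at each step of dose, by 0.58 ± 0.061 at 0.06 against 0.03 nM, 0.42 ± 0.061 at 0.1 against 0.06 nM and 0.82 ± 0.061 at 10 against 0.1 nM. It was the only gene of the 10 called at all 7 comparisons. The noncoding gene AL596325.2 lies within the same locus on the same strand but shares no exon base with UAP1, and it had 2.42 ± 0.19 CPM at 10 nM and 0.482 ± 0.059 CPM in vehicle (SD, n = 3 each).

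GFPT1 (ENSG00000198380.13, chr2:69319769-69387254, minus strand), glutamine:fructose-6-phosphate amidotransferase, had 164, 172 and 180 CPM in vehicle, 182, 159 and 171 CPM at 0.03 nM and 175, 179 and 176 CPM at 0.06 nM. At 0.1 nM it had 186, 204 and 191 CPM, and at 10 nM 318, 325 and 338 CPM. The libraries at 0.03 and 0.06 nM overlapped those of vehicle, those at 0.1 nM lay just above vehicle, and those at 10 nM far above. Against vehicle its log2 fold change was 0.93 ± 0.056 at 10 nM (1.90-fold, adjusted p = 1.23e-10) and 0.17 ± 0.056 at 0.1 nM (adjusted p = 0.02). At 0.03 nM it was -0.01 ± 0.056 and at 0.06 nM 0.04 ± 0.056, with 95% intervals of -0.13 to 0.11 and -0.08 to 0.15. The call at 0.1 nM was lost without vehicle replicate 2 (adjusted p = 0.0968), without 0.1 nM replicate 3 (0.0894) and under library totals without scaling factors (0.155).

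GNPNAT1 (ENSG00000100522.10, chr14:52775194-52791668, minus strand) had 83.6, 87.0 and 80.8 CPM in vehicle, 102, 94.3 and 91.6 CPM at 0.03 nM and 117, 114 and 113 CPM at 0.06 nM. It had 124, 133 and 126 CPM at 0.1 nM and 185, 195 and 196 CPM at 10 nM. The groups did not overlap at any step. Its log2 fold change over vehicle was 1.20 ± 0.051 at 10 nM (2.29-fold, adjusted p = 1.03e-12), 0.61 ± 0.051 at 0.1 nM and 0.46 ± 0.051 at 0.06 nM. At 0.03 nM it was 0.19 ± 0.051 (adjusted p = 0.0232), a call that was lost without vehicle replicate 2 (0.0683), vehicle replicate 4 (0.106) or 0.03 nM replicate 2 (0.111), with only the libraries compared in the fit (0.103) and without a filter on low counts (0.0517). The antisense gene AL139317.3 shares 35.6% of the exon bases of GNPNAT1 and had 0.303 ± 0.088 CPM at 10 nM and 0.15 ± 0.15 CPM in vehicle (SD, n = 3 each). The libraries were made with a stranded kit, but the strand setting of the counting is not given in the sources used here, so reads of a gene and of its antisense partner may have been mixed.

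PGM3 (ENSG00000013375.16, chr6:83161150-83193936, minus strand), which converts GlcNAc-6-phosphate to GlcNAc-1-phosphate, had 53.9, 63.1 and 59.8 CPM in vehicle, 61.1, 71.1 and 64.0 CPM at 0.03 nM and 70.3, 81.2 and 72.7 CPM at 0.06 nM. It had 84.7, 98.6 and 92.9 CPM at 0.1 nM and 169.5, 191 and 187 CPM at 10 nM. Within each group the library numbered 3 was the highest, and from 0.06 nM on no library of a dose was as low as any of vehicle. PGM3 differed from vehicle by a log2 fold change of 1.63 ± 0.078 at 10 nM (3.10-fold, adjusted p = 5.16e-12), 0.64 ± 0.078 at 0.1 nM and 0.34 ± 0.078 at 0.06 nM (adjusted p = 0.00267). At 0.03 nM it was 0.15 ± 0.078 (adjusted p = 0.282). With the replicate number as a block the last was called (0.15, adjusted p = 0.0131). DOP1A, on the opposite strand, shares 14.8% of the exon bases of PGM3 and moved the other way, with 29.8 ± 1.8 CPM at 10 nM against 37.7 ± 2.9 CPM in vehicle (SD, n = 3 each; log2 fold change -0.34 ± 0.063).

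The share of the 10 nM response, on the log2 scale, that was already present at 0.1 nM was 66.4% for UAP1, 50.8% for GNPNAT1, 39.4% for PGM3 and 18.3% for GFPT1. At 0.06 nM it was 49.3%, 38.1%, 20.9% and 4.02% in the same order of genes. Among the genes of sialic acid synthesis described next, NANS had reached 49.5% and CMAS 38.7% at 0.1 nM. These shares describe the means, rest on the same vehicle libraries and were not tested against each other.

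The enzymes that put the O-GlcNAc mark on proteins and take it off did not follow the enzymes that make its donor. OGT, the only transferase of the nucleus and cytosol, was not called in any of the 7 comparisons. Under alternative settings it was called lower than vehicle in 7 of 14 runs at 0.1 nM and 3 of 14 at 10 nM. OGA, the hydrolase, was called lower than vehicle at 0.06, 0.1 and 10 nM by less than 0.3 on the log2 scale. Neither gene overlaps another in the annotation.

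OGT (ENSG00000147162.14, chrX:71533083-71575897, plus strand) had 207, 233 and 227 CPM in vehicle, 206, 226 and 225 CPM at 0.03 nM and 196, 211 and 212 CPM at 0.06 nM. It had 185, 218 and 189 CPM at 0.1 nM and 191, 219 and 203 CPM at 10 nM. All groups overlapped. Its log2 fold change over vehicle was -0.12 ± 0.069 at 10 nM (95% interval -0.27 to 0.03, adjusted p = 0.148) and -0.17 ± 0.069 at 0.1 nM (-0.32 to -0.02, adjusted p = 0.0575). With the replicate number as a block, the difference at 0.1 nM was called lower (-0.17, adjusted p = 0.00181). It was also called under library totals (-0.23, adjusted p = 0.0088), without a filter on low counts (0.025), with a stricter one (0.0361), and without vehicle replicate 2 (0.0269), 0.1 nM replicate 3 (0.00986) or the libraries numbered 3 (0.0202). At 10 nM it was called under library totals (-0.33, adjusted p = 0.000259) and without 10 nM replicate 3 (-0.19, adjusted p = 0.0402). The block also called OGT lower there (-0.12, adjusted p = 0.016), in a comparison where not all 3 same-numbered pairs correlated over 0.1.

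OGA (ENSG00000198408.14, chr10:101784443-101818465, minus strand) had 244, 277 and 296 CPM in vehicle, 255, 275 and 266 CPM at 0.03 nM and 222, 247 and 249 CPM at 0.06 nM. It had 216, 239 and 227 CPM at 0.1 nM and 222, 247 and 235 CPM at 10 nM. Vehicle libraries lay above all those at 0.1 nM, and vehicle replicate 2 lay within the range of the 0.06 and 10 nM libraries. Its log2 fold change over vehicle was -0.26 ± 0.069 at 0.1 nM (adjusted p = 0.00511), -0.21 ± 0.069 at 10 nM (adjusted p = 0.0126) and -0.19 ± 0.069 at 0.06 nM (adjusted p = 0.0476). The call at 10 nM was lost without vehicle replicate 4 (-0.15, adjusted p = 0.0795). The call at 0.06 nM was lost under 8 of 14 alternatives, among them the removal of any single library of the 2 groups but vehicle replicate 2, with adjusted p-values over all 14 between 0.00153 and 0.23. Across the 15 libraries OGT and OGA followed each other (Pearson r of log2 CPM 0.90, with no p, since 3 libraries each share a dose). The log2 ratio of OGT to OGA averaged -0.20 ± 0.021 at 10 nM and -0.29 ± 0.077 in vehicle (SD, n = 3 each). The difference of 0.09 had an exact two-sided permutation p of 0.1, the smallest that 3 against 3 allows, and 0.25 after Benjamini-Hochberg adjustment over 5 comparisons.

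**Figure D2:**
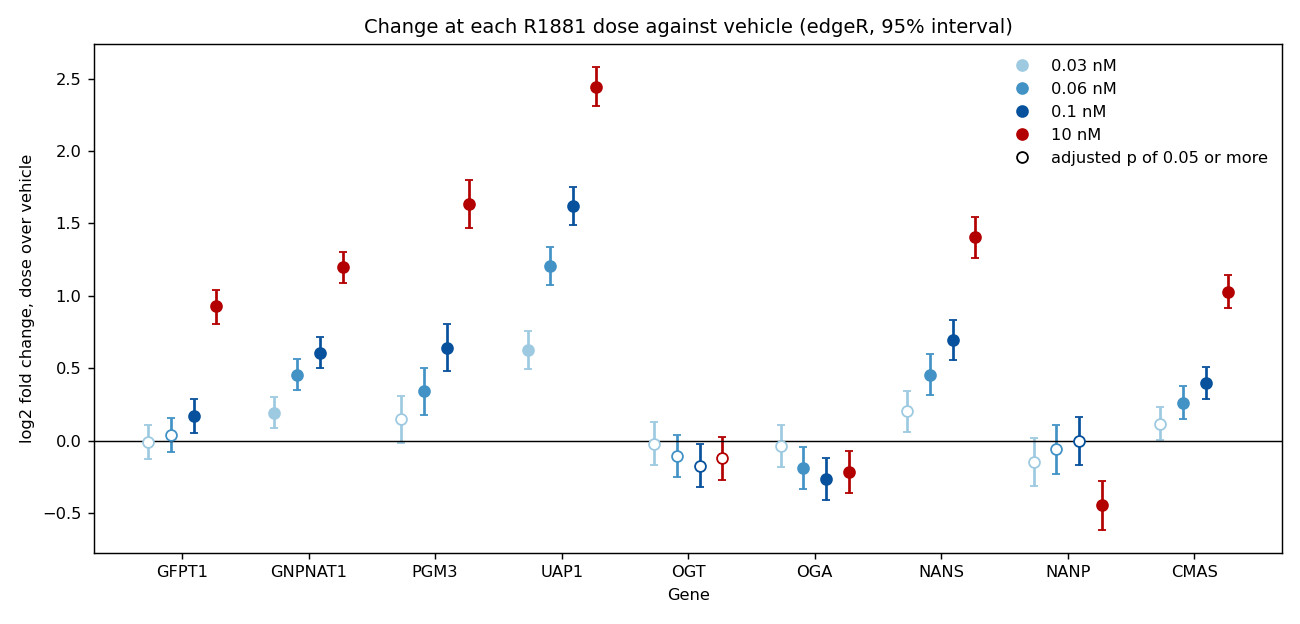
Log2 fold change over vehicle (vertical axis) at each R1881 dose for the 9 genes with counts in every library, with 95% intervals from edgeR; filled points passed the adjusted p threshold of 0.05 and open points did not. The 4 genes of UDP-GlcNAc synthesis, NANS and CMAS rise with dose to between 0.93 and 2.45 at 10 nM, while OGT and OGA stay within 0.3 of 0 and NANP passes the threshold, as lower, at 10 nM alone.

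Of the 4 enzymes that lead from UDP-GlcNAc to CMP-sialic acid, the third did not rise with the others. NANS, which condenses N-acetylmannosamine-6-phosphate with phosphoenolpyruvate, and CMAS, which activates sialic acid with CTP in the nucleus, rose to 2.65-fold and 2.04-fold of vehicle at 10 nM. NANP, the phosphatase between them, fell. GNE, the bifunctional epimerase and kinase that starts the branch and is inhibited by its end product, had few reads in every group and most of them at 10 nM.

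NANS (ENSG00000095380.11, chr9:98056739-98083075, plus strand) had 64.6, 64.2 and 62.3 CPM in vehicle, 70.4, 82.6 and 67.6 CPM at 0.03 nM and 87.2, 92.5 and 82.8 CPM at 0.06 nM. It had 98.5, 109.5 and 101 CPM at 0.1 nM and 164, 171 and 171 CPM at 10 nM. No dose group overlapped vehicle or its neighbours in dose. The log2 fold change over vehicle was 1.40 ± 0.067 at 10 nM (adjusted p = 4.95e-12), 0.70 ± 0.067 at 0.1 nM and 0.46 ± 0.067 at 0.06 nM. At 0.03 nM it was 0.20 ± 0.067 and missed the threshold (adjusted p = 0.0689). It was called there with the replicate number as a block (adjusted p = 0.00643), under library totals (0.0396), with DESeq2 (0.045), without a filter on low counts (0.0373) and without 0.03 nM replicate 4 (0.0315). TRIM14, on the opposite strand, shares 8.57% of the exon bases of NANS and had 46.3 ± 1.0 CPM at 10 nM and 44.3 ± 3.0 CPM in vehicle (SD, n = 3 each; log2 fold change 0.06 ± 0.087).

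CMAS (ENSG00000111726.13, chr12:22046174-22065674, plus strand) had 62.6, 66.9 and 61.4 CPM in vehicle, 71.2, 70.1 and 65.9 CPM at 0.03 nM and 75.8, 74.0 and 79.4 CPM at 0.06 nM. It had 80.7, 88.6 and 82.3 CPM at 0.1 nM and 128, 135 and 128 CPM at 10 nM. From 0.06 nM on the groups did not overlap vehicle or each other. For CMAS the log2 fold change over vehicle was 1.03 ± 0.053 at 10 nM (adjusted p = 1.47e-11), 0.40 ± 0.053 at 0.1 nM and 0.26 ± 0.053 at 0.06 nM (adjusted p = 0.000982), and 0.12 ± 0.053 at 0.03 nM (adjusted p = 0.201). ST8SIA1, which overlaps CMAS on the opposite strand without sharing an exon base, was under 0.2 CPM in every library.

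NANP (ENSG00000170191.5, chr20:25612935-25624175, minus strand) had 17.6, 21.03 and 18.5 CPM in vehicle, 17.2, 17.3 and 17.3 CPM at 0.03 nM and 18.3, 19.6 and 16.99 CPM at 0.06 nM. It had 18.7, 20.4 and 17.99 CPM at 0.1 nM and 14.1, 14.8 and 13 CPM at 10 nM. The 10 nM libraries were below all 12 others. Those others overlapped, except that the 0.03 nM libraries lay just under those of vehicle and of 0.1 nM. The log2 fold change was -0.45 ± 0.080 at 10 nM against vehicle (adjusted p = 0.000112) and -0.44 ± 0.080 against 0.1 nM (adjusted p = 0.000214). At 0.1 nM against vehicle the log2 fold change was under 0.01 in size (95% interval -0.17 to 0.17). Across the tested genes, 24.3% had a log2 fold change at 10 nM at least as low. ZNF337-AS1, on the opposite strand, shares 2.77% of the exon bases of NANP and was also lower, with 12.5 ± 0.20 CPM at 10 nM against 23.2 ± 1.5 CPM in vehicle (SD, n = 3 each; log2 fold change -0.90 ± 0.080). Whether reads of one were counted for the other was not tested.

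GNE (ENSG00000159921.20, chr9:36214441-36277056, minus strand) had 1, 1 and 1 counts in the vehicle libraries, 0, 2 and 0 at 0.03 nM, 0, 4 and 1 at 0.06 nM, 3, 4 and 5 at 0.1 nM, and 21, 37 and 21 at 10 nM. The 10 nM libraries stood apart from all others, and those at 0.1 nM lay above those of vehicle. Summed over the group, its level was 0.600 CPM at 10 nM (exact 95% counting interval 0.475 to 0.748) from 79 counts, against 0.0229 CPM in vehicle (0.0047 to 0.067) from 3 counts. The ratio was 26.2, with a counting interval of 8.65 to 129.8, which covers counting error only. For 0.1 nM over vehicle the ratio was 4.41 (1.19 to 24.3) and for 10 over 0.1 nM it was 5.95 (3.22 to 12). At 0.06 nM over vehicle it was 1.996 (0.388 to 12.9), which includes 1, and no ratio is given at 0.03 nM, where both groups had 3 counts or fewer. GNE reached the filter's minimum of 0.245 CPM only in the 10 nM libraries, so its presence among the tested genes required a difference, and the edgeR call at 10 nM (adjusted p = 6.58e-06) is not counted as support. CLTA, on the opposite strand, shares no exon base with GNE but overlaps its span, and had 156 ± 7.2 CPM at 10 nM against 110 ± 6.4 CPM in vehicle (SD, n = 3 each; log2 fold change 0.51 ± 0.059). The log2 ratio of GNE to GFPT1 differed between 10 nM and vehicle by 2.23 with a prior count of 2 added to each library and by 3.17 with one of 0.5. With 1 count per vehicle library its size depends on the prior count, and no test is given.

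Counted over the 9 genes that reached the filter's minimum in every library, all but GNE, the calls grew with dose. At 0.03 nM 2 were higher than vehicle (UAP1 and GNPNAT1) and 0 lower, where 5.47% of all tested genes were higher and 3.16% lower. PGM3 and NANS came to these when the replicate number was a block, which made 4. At 0.06 nM 5 were higher (GNPNAT1, PGM3, UAP1, NANS and CMAS) and 1 lower (OGA), against 16.9% and 14.3% of all tested genes. At 0.1 nM 6 were higher, the same 5 with GFPT1, and 1 lower (OGA), against 21.5% and 20.6%. At 10 nM the same 6 were higher and 2 lower (OGA and NANP), against 29.3% and 28.3%. The median log2 fold change over these 9 genes was 0.12, 0.26, 0.40 and 1.03 from the lowest dose to the highest. Over all tested genes the median lay between -0.03 and 0.01 in these comparisons, which share their vehicle libraries.

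Between neighbouring doses, 3 genes were higher and 0 lower at 0.06 against 0.03 nM (GNPNAT1, UAP1 and NANS), where 4.2% and 2.06% of all tested genes were. The log2 fold change was 0.26 ± 0.051 for GNPNAT1 (adjusted p = 0.00504) and 0.25 ± 0.067 for NANS (adjusted p = 0.0319). The call of NANS was lost without 0.03 nM replicate 2 (adjusted p = 0.117), 0.03 nM replicate 4 (0.159), 0.06 nM replicate 2 (0.111) or 0.06 nM replicate 3 (0.117), and with only the libraries compared (0.0858). With the replicate number as a block 6 genes were called: PGM3 (0.19, adjusted p = 0.00206) and CMAS (0.15, adjusted p = 0.0345) were also higher and OGA lower (-0.15, adjusted p = 0.0217). At 0.1 against 0.06 nM 1 gene was higher, UAP1 (adjusted p = 0.000903), and 0 lower, against 1.07% and 0.293% of all tested genes. At an unadjusted edgeR p under 0.05, the genes lower at 0.03 nM against vehicle numbered 0, at 0.06 against 0.03 nM 1 (OGA) and at 0.1 against 0.06 nM 0, and DESeq2 called none lower in these 3 comparisons. PGM3 had a log2 fold change of 0.30 ± 0.077 at 0.1 against 0.06 nM (adjusted p = 0.068). It was called with DESeq2 (0.0106), without a filter on low counts (0.000516), without 0.06 nM replicate 3 (0.0442), without 0.1 nM replicate 2 (0.0463) and without the libraries numbered 3 (0.0152). NANS had 0.24 ± 0.066 (adjusted p = 0.107) and was called with DESeq2 (0.0315), without a filter (0.0198) and without the libraries numbered 3 (0.0265).

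At 10 against 0.1 nM 6 of the 9 genes were higher and 1 lower (NANP), against 20.6% and 19.5% of all tested genes. PGM3 rose most of the 6, by 0.99 ± 0.077, followed by UAP1 with 0.82 ± 0.061, GFPT1 with 0.76 ± 0.056, NANS with 0.71 ± 0.066, CMAS with 0.63 ± 0.053 and GNPNAT1 with 0.59 ± 0.050 on the log2 scale. Every one of the 6 had an adjusted p of 1.3e-07 or less. This order differs from that against vehicle, where UAP1 led and GFPT1 came last. OGT and OGA had log2 fold changes of 0.05 ± 0.069 each, with 95% intervals of -0.10 to 0.20 and -0.10 to 0.19, and the sign of both turned to -0.10 and -0.11 under library totals, which move the median of all genes by -0.15. Both signs also turned without 10 nM replicate 3 (-0.02 and -0.01).

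Set per kilobase of exon, levels could be compared between the genes. In vehicle, OGA (37.6 CPM per kb), UAP1 (36.7) and CMAS (31.5) were highest, then OGT (22.6), GNPNAT1 (20.9), GFPT1 (19.4), NANS (12.95), PGM3 (8.04) and NANP (4.802), with GNE at 0.0039. OGA and UAP1, and GNPNAT1 and its neighbours OGT and GFPT1, were within each other's spread. At 10 nM UAP1 stood at 199.8 ± 3.9 CPM per kb, above CMAS (64.4 ± 2.0), GNPNAT1 (47.9 ± 1.5), GFPT1 (36.9 ± 1.1), NANS (34.3 ± 0.84), OGA (32.4 ± 1.8), PGM3 (24.9 ± 1.6), OGT (20.8 ± 1.4), NANP (3.52 ± 0.23) and GNE (0.0996 ± 0.014) (SD, n = 3 each). NANS and OGA lay closest together there. GNE, the first enzyme of the branch, was thus the lowest transcript of the 10 in every group, and NANP the next lowest. Exon length is the union of all annotated exons, which overstates the length of genes with many isoforms.

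**Figure D3:**
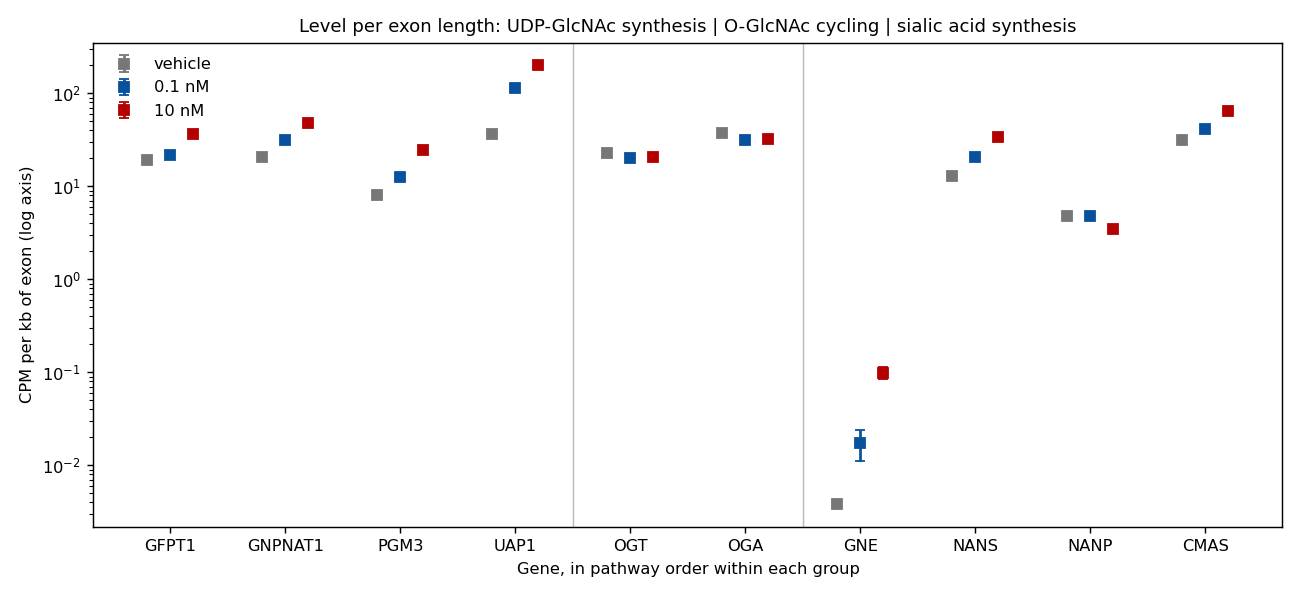
Mean level per kilobase of exon (CPM per kb, log axis) in vehicle, 0.1 nM and 10 nM libraries, with SD bars over 3 libraries, mostly smaller than the squares; grey lines divide UDP-GlcNAc synthesis, O-GlcNAc cycling and sialic acid synthesis. UAP1 reaches 199.8 CPM per kb at 10 nM, and GNE stays below 0.1.

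The genes whose level followed NANP most closely over the 15 libraries, among 11219 with a symbol and a mean of at least 5 CPM in a group, were C2CD2 (Pearson r of log2 CPM 0.94), CHST10 (0.93) and IFIH1 (0.92). CHST10, a sulfotransferase of the HNK-1 glycan, had 13.04 CPM at 10 nM against 22.2 CPM in vehicle. For GNE they included TARS1, the threonyl-tRNA synthetase, with r of 0.98, and UNC13B with 0.97, though most GNE libraries were near the floor. Within the 10 genes, r was 0.99 for GNPNAT1 with NANS and for PGM3 with CMAS. The libraries share their doses, so these values describe likeness of pattern and carry no p.

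The genes around the pathway did not move as one. Among 12 genes that supply or salvage UDP-GlcNAc, 6 were higher and 1 lower at 10 nM, where 29.3% of all tested genes were higher and 28.3% lower, with a median log2 fold change of 0.14 against -0.01 over all tested genes. HK1 and HK2, hexokinases that phosphorylate glucose, and GLUL, which makes the glutamine that GFPT1 consumes, had the smallest p. HK2 had 81.8 ± 6.2 CPM at 10 nM and 31.5 ± 3.3 CPM in vehicle (log2 fold change 1.38 ± 0.079), HK1 323 ± 11 CPM and 149 ± 4.3 CPM (1.12 ± 0.060), and GLUL 468 ± 43 CPM and 213 ± 16 CPM (1.13 ± 0.069). GFPT2, the second isoform of the amidotransferase, was the lower one, with 0.955 ± 0.11 CPM at 10 nM and 1.93 ± 0.20 CPM in vehicle. HK2 was also higher than vehicle at 0.03 nM, HK1 and HK2 were higher at 0.06 and 0.1 nM, and GFPT2 and RENBP were lower at 0.1 nM.

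Of 7 tested genes of sialic acid transport, turnover and removal, 4 were lower and 1 higher at 10 nM, against 28.3% and 29.3% of all tested genes, with a median of -0.26. The sialidases NEU3, of the plasma membrane, and NEU4 had log2 fold changes of -0.30 ± 0.047 and -1.34 ± 0.23, the acetylesterase SIAE -0.26 ± 0.060 and the sialic acid lyase NPL -0.40 ± 0.12. SLC35A1, the Golgi carrier of CMP-sialic acid, was the higher one with 0.42 ± 0.14 (adjusted p = 0.0177). At 0.03 nM 0 of the 7 were higher and 0 lower, against 5.47% and 3.16% of all tested genes. At 0.06 nM it was 0 and 1 (NEU1), against 16.9% and 14.3%, and at 0.1 nM 0 and 2 (NEU1 and NEU4), against 21.5% and 20.6%. The sialidase NEU1 had 55.9 ± 2.7 CPM in vehicle, 37.0 ± 2.9 CPM at 0.1 nM and 48.9 ± 2.9 CPM at 10 nM (SD, n = 3 each). Among 14 tested sialyltransferases, 8 were lower and 3 higher at 10 nM, against 28.3% and 29.3% of all tested genes, with a median of -0.86. Part of this count and median rests on genes near the floor. Of the lower ones, ST6GALNAC5, ST6GALNAC6, ST8SIA4 and ST8SIA5 had means of 0.079, 0.12, 0.21 and 0.080 CPM at 10 nM. In vehicle they had 1.9, 0.29, 2.4 and 0.37 CPM in the same order. ST3GAL1, which sialylates core 1 O-glycans, had 355 ± 29 CPM at 10 nM and 733 ± 34 CPM in vehicle, and ST6GALNAC4 had 5.77 ± 0.41 CPM and 14.7 ± 1.9 CPM. ST6GALNAC1, which makes the sialyl-Tn antigen, went the other way, with 83.9 ± 16 CPM at 10 nM and 1.62 ± 0.31 CPM in vehicle (log2 fold change 5.69 ± 0.16), and the other higher ones were ST3GAL4 and ST6GAL1. At 0.03 nM 1 was higher and 1 lower (ST6GALNAC1 and ST3GAL1), against 5.47% and 3.16% of all tested genes. At 0.06 nM 2 were higher and 4 lower, against 16.9% and 14.3%, and at 0.1 nM 3 and 4, against 21.5% and 20.6%.

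Of 11 tested UDP-GlcNAc transporters and GlcNAc transferases of N-glycan assembly, 7 were higher and 2 lower at 10 nM, against 29.3% and 28.3% of all tested genes, with a median of 0.29. MGAT2 and MGAT1, which start the branches of N-glycans, had 90.5 ± 3.1 and 122 ± 4.1 CPM at 10 nM, against 48.4 ± 2.0 and 81.8 ± 3.6 CPM in vehicle. MGAT4A had 5.53 ± 1.0 CPM at 10 nM and 12.9 ± 0.79 CPM in vehicle (log2 fold change -1.21 ± 0.11), and MGAT5 was the other lower gene. At 0.03 nM 1 was higher and 0 lower, against 5.47% and 3.16% of all tested genes, at 0.06 nM 2 and 1, against 16.9% and 14.3%, and at 0.1 nM 4 and 1, against 21.5% and 20.6%.

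**Figure D4:**
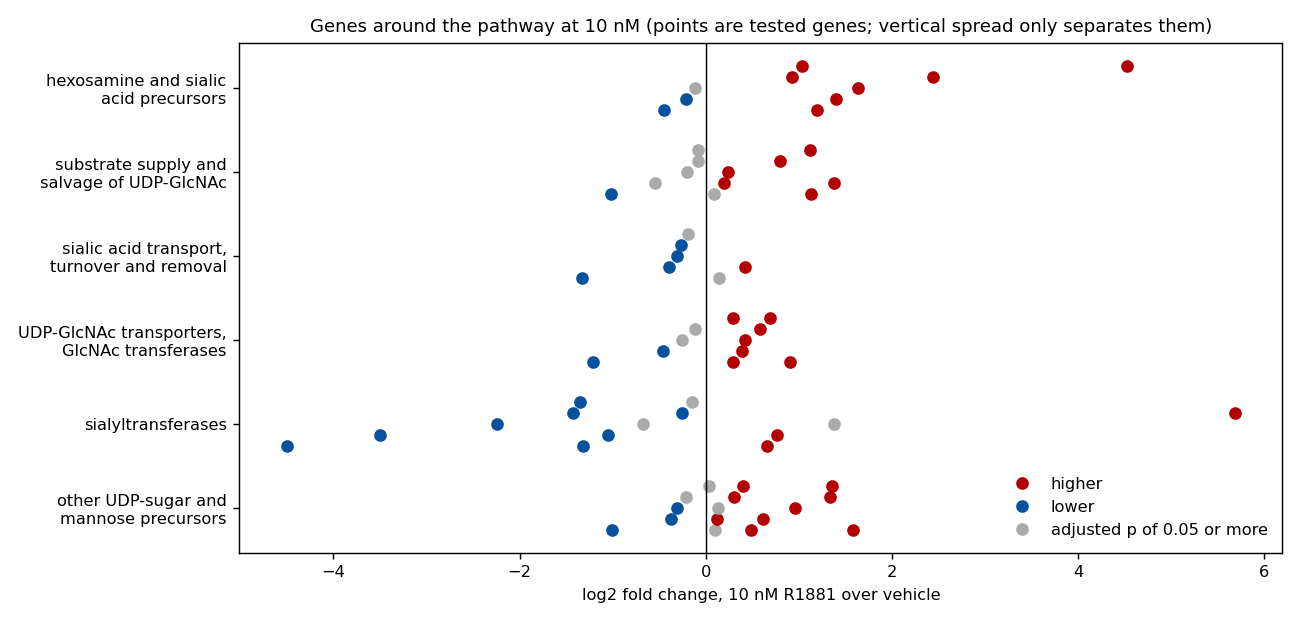
Log2 fold change at 10 nM R1881 over vehicle (horizontal axis) of each tested gene, with 1 point per gene coloured by its edgeR call and the gene groups set out from top to bottom. The top group holds the 10 genes described here, whose rightmost point is the fitted value of GNE. GNE passed the filter only through the 10 nM libraries and had 1 count in each vehicle library. Its colour and position are therefore not counted as support. Most sialyltransferase points lie left of 0.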

How the data were processed

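The submitters' processing notes name the tools Trimmomatic 0.39, STAR 2.7.8a and DESeq2 1.36.0, and the build GRCh38/hg38. What counted the reads, with which annotation release and strand setting, is not given in the sources used here. The libraries were made with a stranded messenger RNA kit, per the labels' protocols. The authors deposited unnormalized read counts for each Ensembl gene in 15 LNCaP libraries. A second deposited table of 15 columns, for VCaP cells, could not be matched to labels and was not used.

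Of the identifiers, stripped of their version, 37732 were found in a symbol table, 28456 of them with a name. Gene positions and exons are GENCODE 29's. Counts were tested with edgeR 4.0.16 (R 4.3.3), using its quasi-likelihood test, two-sided, on all 15 LNCaP libraries and a mean for each group. Libraries were scaled by TMM, low genes removed by filterByExpr, and p-values adjusted by Benjamini-Hochberg over 18403 genes. All 10 genes passed the filter, GNE only through the 10 nM libraries. Intervals and floors of 3 counts cover counting error only. No pair of libraries of a group was alike within sampling noise (lowest chi-square per degree of freedom 3.81). Simulated data were used to test the scripts.

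Same-numbered libraries deviated together with correlations of 0.035 to 0.31, over 0.1 in 17 of 21 pairs, and all 15 libraries correlated best with their own number. All 3 pairs were over 0.1 for 0.03 nM and 0.1 nM against vehicle and 0.06 against 0.03 nM, and blocked values are given there where a call changed. Where the block changed a call in another comparison, the change is given with the remark that not all 3 pairs were over 0.1. The numbers come from the labels, which do not say what they mark.

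All 10 genes are named. Of each list of surrounding genes the 3 with the smallest p at 10 nM are named, others only to complete a count of 5 or fewer, and the 3 genes most like the 2 genes with the largest and lowest log2 fold change. Others named for a list or an overlap, and those most like UAP1, were chosen after their values were seen. Some genes that these rules name are not reported here. The genes and lists were chosen with earlier results of these data known. Alternatives were RLE size factors, library totals, DESeq2 1.42.0, no filter and a stricter filter (a mean count of 20, and 1 CPM in 3 libraries), the block, only the libraries compared, leaving out each library, leaving out the libraries numbered 3, and a prior count of 0.5 for ratios.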

Additional observations from a re-analysis of the deposited data

How the results depend on the processing

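Of 968 values of the 10 genes under alternatives, 892 kept their direction and side of the threshold, 22 lost and 30 gained a call, and 24 changed sign. No call at 10 nM against vehicle of GFPT1, GNPNAT1, PGM3, UAP1, NANS, CMAS or NANP was lost under any alternative run. The count of genes called at 0.03 nM against vehicle was 4 with the replicate block and 1 with only the libraries compared, and 1 to 3 when a single library or those numbered 3 were left out. At 0.06 against 0.03 nM it was 6 with the block. At 0.1 against 0.06 nM it was 3 with DESeq2, without a filter and with the block, and 1 to 3 with libraries left out. For 0.06 and 10 nM against vehicle, 0.1 against 0.06 nM and 10 against 0.1 nM, not all 3 same-numbered pairs correlated over 0.1. There the block added PGM3 and NANS at 0.1 against 0.06 nM and OGT at 10 nM against vehicle (-0.12, adjusted p = 0.016). The block changed no other call than these and those given above. The cause of these changes was not tested.

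Signs turned mainly for differences near 0. The log2 fold change of NANP at 0.1 nM against vehicle was 0.0105 with RLE, 0.0109 with DESeq2 and 0.00304 with only the libraries compared, and -0.0535 to 0.0851 with libraries left out. At 10 against 0.1 nM OGT and OGA were at -0.10 and -0.11 under library totals and ran from -0.0204 to 0.12 and -0.0105 to 0.082 with libraries left out. With libraries left out, at 0.03 nM against vehicle OGT ran from -0.0699 to 0.023, GFPT1 from -0.0596 to 0.040, OGA from -0.11 to 0.0232 and GNE from -3.11 to 0.16. At 0.06 nM against vehicle NANP ran from -0.11 to 0.0197 and GNE from -0.74 to 1.57, and at 0.06 against 0.03 nM GNE from -0.26 to 4.04 and GFPT1 from -0.00155 to 0.097. The difference in log2 OGT minus OGA ran from -0.0282 to 0.0412 at 0.03 nM against vehicle and from -0.0232 to 0.0401 at 10 against 0.1 nM. That in log2 GNE minus GFPT1 ran from -0.60 to 0.0625 at 0.03 nM and from -0.28 to 0.66 at 0.06 nM against vehicle. With a prior count of 0.5 it was 1.51 at 0.1 nM and 3.17 at 10 nM against vehicle and 1.66 at 10 against 0.1 nM.

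Library totals moved the median of all genes by -0.21 at 10 nM against vehicle, with 3069 genes higher and 7987 lower in place of 5399 and 5209. Over all genes, counts of higher genes ran from 303 to 1791 at 0.06 against 0.03 nM (773 as reported) and from 86 to 594 at 0.1 against 0.06 nM (197), so the shares called at these steps depend on the setting. The depth of GNE, 1 count in each vehicle library, limits its ratios.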

Other observations

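Precursors of the other nucleotide sugars also moved with R1881. Of 16 tested genes of UDP-glucose, UDP-xylose, galactose, mannose and fucose supply, 9 were higher and 3 lower at 10 nM than in vehicle, where 29.3% of all tested genes were higher and 28.3% lower, with a median log2 fold change of 0.22 against -0.01 over all tested genes. PGM2, a phosphopentomutase that also acts on glucose phosphates, had 242 ± 15 CPM at 10 nM and 80.8 ± 2.1 CPM in vehicle (log2 fold change 1.58 ± 0.052). GMPPB and GMPPA, the catalytic and the regulatory subunit of the enzyme that makes GDP-mannose, had 175 ± 11 and 55.6 ± 3.2 CPM at 10 nM, against 68.7 ± 4.4 and 22.1 ± 0.51 CPM in vehicle (SD, n = 3 each). Their log2 fold changes were 1.35 ± 0.067 and 1.33 ± 0.059. The lower genes were GALT and GALK1, which take up galactose into the nucleotide sugars, and FCSK, which salvages fucose. GALK1 had 8.49 ± 0.47 CPM at 10 nM and 17.1 ± 1.2 CPM in vehicle. At 0.03 nM 2 of the 16 were higher and 1 lower, against 5.47% and 3.16% of all tested genes, at 0.06 nM 7 and 2, against 16.9% and 14.3%, and at 0.1 nM 7 and 4, against 21.5% and 20.6%.

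The genes whose level followed UAP1 most closely over the 15 libraries were STK39, a kinase of ion cotransporters (Pearson r of log2 CPM 0.999), INPP4B, a phosphoinositide phosphatase (0.996), and MPC2, a subunit of the mitochondrial pyruvate carrier (0.995). STK39 had a mean of 45.3, 73.9, 114, 159.7 and 319.8 CPM from vehicle to 10 nM, and MPC2 182, 282, 403, 502 and 769.9 CPM.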
